A study of Drosophila melanogaster with 2 samples.

Results

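Nuclear tRNA genes were examined for peaks of CG9948, an uncharacterized fly protein, in ChIP-seq of whole Drosophila melanogaster pupae aged 24 h. All genes of biotype tRNA on the nuclear chromosomes of the Ensembl dm6 annotation were taken. They number 290 of 17683 annotated genes with a start site, and the 22 mitochondrial tRNA genes were not included. Pupae for both libraries came from the same transgenic strain, which stably makes CG9948 fused to GFP at its C terminus, and an anti-GFP antibody was used to pull down chromatin. The promoter that drives the transgene is not given in the labels, and whole animals mix all cell types. The 2 libraries, numbered 1 and 3, are biological replicates of a single group, so no condition could be compared. The authors gave 4 lists, of which those of replicate 1, replicate 3 and the pooled libraries have 30000 peaks each and the optimal IDR list (peaks kept by the irreproducible discovery rate) has 7637. They give no read counts, so depth is unknown, and the 30000 peaks of 3 lists are a fixed length rather than a measure of enrichment. A list gives each peak a signal on an unstated scale, which is the authors' own value and is compared in the Results only within its list.

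Transfer RNAs carry amino acids to the ribosome and are read by their anticodon, so genes are grouped into families by amino acid and anticodon. Their genes are transcribed by RNA polymerase III, unlike protein-coding genes, from promoters that lie inside the transcribed sequence. An A box near the start and a B box in the T arm are bound by TFIIIC, which places TFIIIB, with its subunits Brf, Bdp1 and a TBP-type factor, just upstream of the gene. In animals many tRNA genes lie in clusters, in introns of other genes or close to promoters of RNA polymerase II, and many have identical copies.

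The 290 genes comprised 45 families with 95 distinct sequences and had a median length of 73 bp (71 to 186). An identical copy elsewhere in the genome existed for 238 of them, with up to 13 copies of a sequence. All 290 genes had the same symbol, chromosome, start and end in RefSeq, and all 290 carried the letters of their labelled anticodon at positions 31 to 40. A loose form of the A box, TNGNNNA beginning 7 to 9 bases into the gene, was found in 287 genes, and a loose form of the B box, GTTCNANNC, in 271. The genes below are shown because they carried the strongest IDR peaks among the genes that can be shown, or because they had summits within 100 bp after the 5′ end in the pooled and both replicate lists. Each is the gene's own strand from 5′ to 3′ in the RefSeq dm6 genome, with both boxes in capitals.

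tRNA:Tyr-GTA-1-8 (chr3R:8669081-8669174, minus strand): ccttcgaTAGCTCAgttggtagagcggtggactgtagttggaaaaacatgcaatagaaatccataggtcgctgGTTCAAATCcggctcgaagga
tRNA:Gln-TTG-2-1 (chrX:3427452-3427523, minus strand): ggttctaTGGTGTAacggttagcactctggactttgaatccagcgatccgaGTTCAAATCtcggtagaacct
tRNA:Lys-TTT-1-1 (chr2L:8290727-8290799, plus strand): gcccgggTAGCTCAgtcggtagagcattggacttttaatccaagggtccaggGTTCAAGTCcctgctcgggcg
tRNA:Pro-AGG-1-2 (chr2L:14598859-14598930, plus strand): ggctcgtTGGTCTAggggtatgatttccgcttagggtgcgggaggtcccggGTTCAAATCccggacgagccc
tRNA:Arg-TCG-3-4 (chrX:14017212-14017284, plus strand): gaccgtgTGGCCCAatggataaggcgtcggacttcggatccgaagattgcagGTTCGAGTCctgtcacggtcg
tRNA:Arg-TCT-3-1 (chr2L:2187007-2187079, plus strand): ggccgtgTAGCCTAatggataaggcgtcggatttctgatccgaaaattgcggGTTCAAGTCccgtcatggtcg

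The Tyr-GTA, Gln-TTG, Lys-TTT and Arg-TCT genes shown had no identical copy, the Arg-TCG sequence had 4 copies and the Pro-AGG sequence 7. The second gene chosen for summits within 100 bp after its 5′ end, Pro-AGG-1-7 (chr3L:13212365-13212436, plus strand), has the same sequence as Pro-AGG-1-2. The choice of these last 2 genes, and the loose box forms, were made after their values had been seen.

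Few tRNA genes had an IDR peak, and the replicates differed widely at these genes. An IDR summit lay within 500 bp of the 5′ end of 21 of 290 tRNA genes (7.24%, 95% Wilson interval 4.78 to 10.8, which here and below covers counting error only), against 16.0% of all annotated genes. In replicate 3, 150 tRNA genes (51.7%, 46.0 to 57.4) had a summit, against 42.4% of all genes. In replicate 1, 55 tRNA genes (19.0%, 14.9 to 23.9) had one, against 29.6% of all genes. The pooled list reached 133 tRNA genes (45.9%, 40.2 to 51.6), against 39.1% of all genes. The share of tRNA genes was thus above that of all genes in the lists of replicate 3 and pooled reads and below it in those of replicate 1 and IDR. Bases within 500 bp of a summit made up 20.2% of the chromosomes for replicate 1, 18.0% for replicate 3, 18.3% for the pooled list and 5.39% for IDR.

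**Figure D1:**
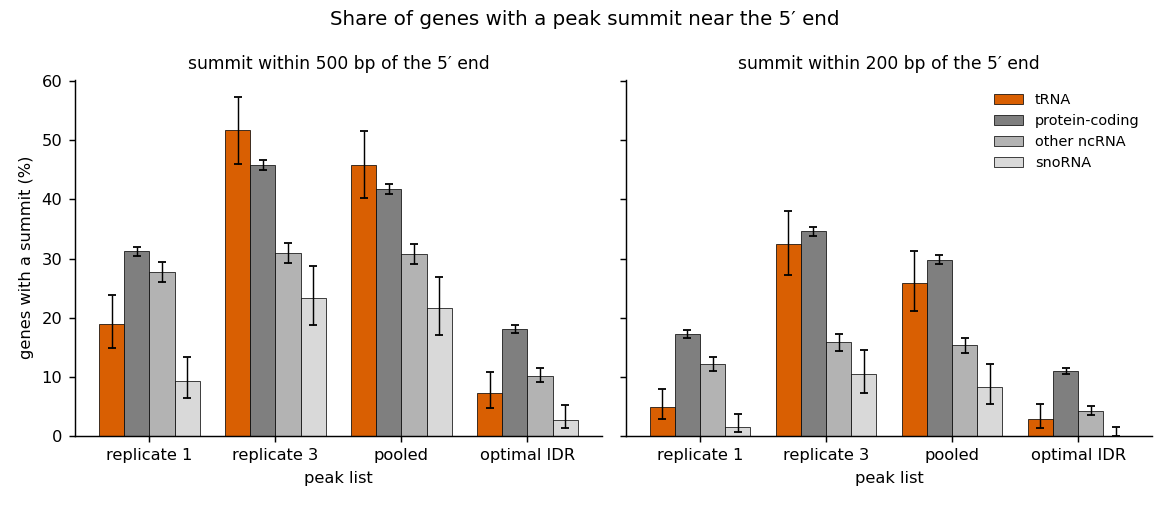
Share of genes (%) with a summit within 500 bp (left) and 200 bp (right) of the 5′ end, for 290 tRNA, 13945 protein-coding, other ncRNA and 269 snoRNA genes in each peak list; error bars are 95% Wilson intervals. Within 500 bp the tRNA bar is the highest for replicate 3 (51.7%) and the pooled list (45.9%) and is well under the protein-coding bar for replicate 1 (19.0% and 31.2%) and IDR (7.24% and 18.0%).

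The lists of both replicates also differed within 200 bp. Replicate 3 had a summit there at 94 tRNA genes (32.4%, 27.3 to 38.0), against 30.6% of all genes. Replicate 1 had one at 14 tRNA genes (4.83%, 2.90 to 7.94), against 15.7% of all genes. The pooled list had one at 75 (25.9%, 21.2 to 31.2), against 26.6% of all genes, and the IDR list at 8 (2.76%, 1.4 to 5.35), against 9.36%. Both replicate lists had a summit within 200 bp at 9 tRNA genes, replicate 3 alone at 85, replicate 1 alone at 5 and neither at 191. Within 500 bp the same counts were 33, 117, 22 and 118. What sets the libraries apart at these genes, including read depth and the placement of reads from repeated sequence, was not tested.

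Other classes of gene give the scale of this difference between the lists. Protein-coding genes had a summit within 500 bp in 31.2% of cases in replicate 1 and 45.8% in replicate 3, and noncoding genes other than tRNA in 23.9% and 28.0%. The snoRNA genes, short noncoding genes that guide modification of ribosomal RNA and mostly lie in introns, had one in 9.29% and 23.4%, so a lower share in replicate 1 was seen in each class. Within 200 bp the shares in replicates 1 and 3 were 17.2% and 34.6% for protein-coding genes and 1.49% and 10.4% for snoRNA genes. These differences between classes are given as counts and were not tested.

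In replicate 3 the summits gathered at the 5′ end itself. There were 86 distinct summits within 200 bp of a tRNA 5′ end, or 807 per Mb against a mean of 224 per Mb over the chromosomes, which is 3.60 times that mean. From 200 to 500 bp the ratio was 1.5. In replicate 1 the ratio was 0.586 within 200 bp (14 summits) and 1.42 from 200 to 500 bp (36 summits), so the distance at which replicate 3 summits were densest was the one at which replicate 1 summits were sparsest. The pooled list had a ratio of 2.76 (66 summits) and the IDR list 1.15 (7 summits) within 200 bp. At protein-coding start sites the ratios within 200 bp were 3.33 in replicate 3, 1.4 in replicate 1, 2.75 in the pooled list and 3.08 in the IDR list. At snoRNA genes they were 1.42 (27 summits), 0.211 (4 summits), 1.16 (22 summits) and 0 (0 summits) in the same order. Replicate 1 summits were thus sparse within 200 bp at snoRNA genes too.

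**Figure D2:**
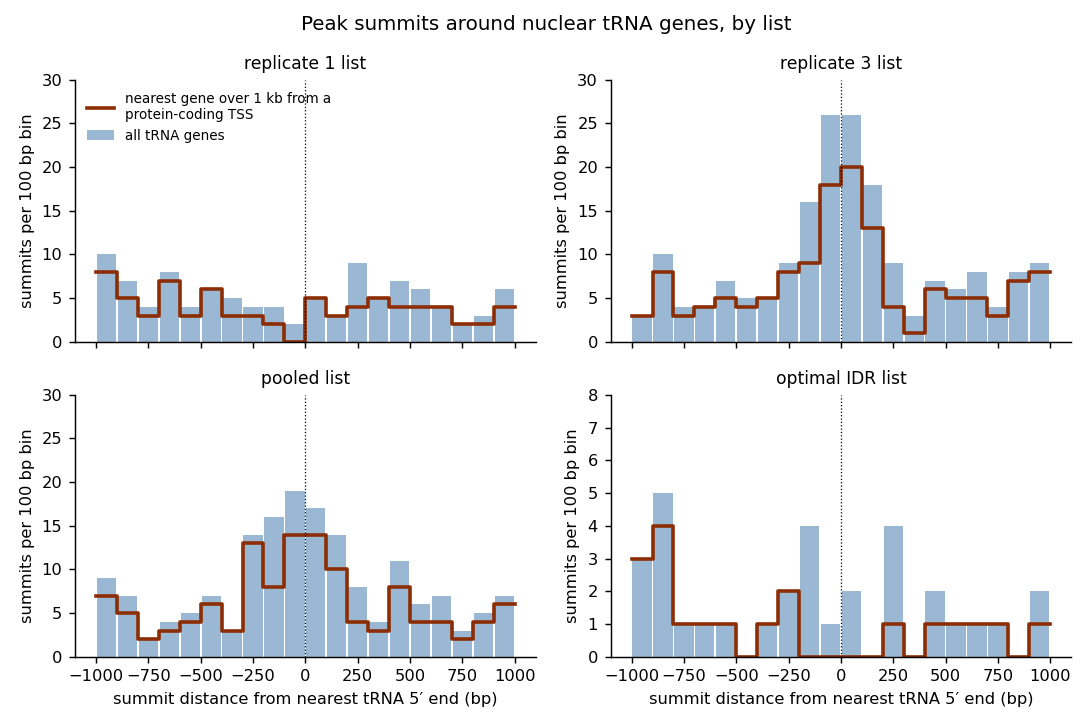
Distinct summits per 100 bp bin by distance from the nearest tRNA 5′ end in the direction of transcription (bp, negative is upstream), in each peak list; bars count all 290 genes, and the line counts summits whose nearest tRNA gene lies more than 1000 bp from a protein-coding TSS. Replicate 3 and the pooled list have their highest bins beside the 5′ end, replicate 1 has few summits there, and the IDR panel has its own vertical scale.

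The replicate 3 summits within 200 bp lay evenly on both sides of the 5′ end, 42 upstream and 44 downstream, with a median position of 2.5 bp downstream, and 17 fell inside a tRNA gene. Their median signal was 44.6, against 51.9 over all replicate 3 peaks. By rank in that list, 5 were among the first 5000 peaks, 15 in each of the next 2 blocks of 5000, then 24, 16 and 11. They were thus spread over the whole list rather than held by its strongest peaks. At 81 of the 86 the summit was given at the exact centre of the peak interval, as for 81.3% of all replicate 3 peaks, so their distance to the 5′ end is that of the interval's midpoint. The 14 summits of replicate 1 had a median signal of 23.3, against 25 over that list.

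Pooled peaks at tRNA genes were backed mainly by replicate 3. Of the 66 pooled peaks with a summit within 200 bp, 11 (16.7%) had a matching peak in each replicate, where matching means that the overlap covers 50% or more of the shorter interval, against 45.5% of all pooled peaks. A further 45 (68.2%) matched replicate 3 alone, against 35.5% of all pooled peaks. Another 3 matched replicate 1 alone, and 7 had no match. When each replicate list was reduced to its 7637 strongest peaks, 13 summits of replicate 3 (2.14 times the mean of those peaks) and 1 of replicate 1 (0.165 times) lay within 200 bp of a tRNA 5′ end.

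In the IDR list, a peak was more frequent at tRNA genes near a protein-coding promoter, an order that did not hold among the strongest replicate 1 peaks. The nearest protein-coding TSS was within 1000 bp for 79 tRNA genes and farther for 211, with a median distance of 2895 bp over all 290. An IDR summit within 500 bp was found at 14 of the 79 near genes (17.7%, 10.9 to 27.6) and at 7 of the 211 far ones (3.32%, 1.62 to 6.69). These intervals do not overlap, but they treat genes as independent. The 21 genes with a summit shared 16 distinct peaks, and 6 of those peaks served 2 or more genes. With the 7637 strongest replicate 1 peaks in place of the IDR list, so without replicate 3, a summit was found at 1 of the 79 near genes and 5 of the 211 far ones, the opposite order of shares. With the 7637 strongest replicate 3 peaks the counts were 18 and 15, and with the stronger 3818 IDR peaks 3 and 4. In the whole IDR list the share of the near genes was close to the 16.0% of all annotated genes, and that of the far genes was below it. Within 200 bp, an IDR summit was found at 8 of the 79 near genes and at 0 of the 211 far ones, which allows a share of up to 1.42% by a floor of 3 counts and has a Wilson upper limit of 1.79%. In replicate 3 the shares within 500 bp were 45 of 79 (57.0%, 46.0 to 67.3) and 105 of 211 (49.8%, 43.1 to 56.5), whose intervals overlap. In replicate 1 they were 17 of 79 (21.5%) and 38 of 211 (18.0%). Around the far genes alone the replicate 3 summits within 200 bp were 3.48 times as dense as the list's mean (61 summits), and those of replicate 1 were 0.571 times (10 summits). Among the 7637 strongest replicate 3 peaks 4 summits lay there, 0.897 times the mean of those peaks.

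**Figure D3:**
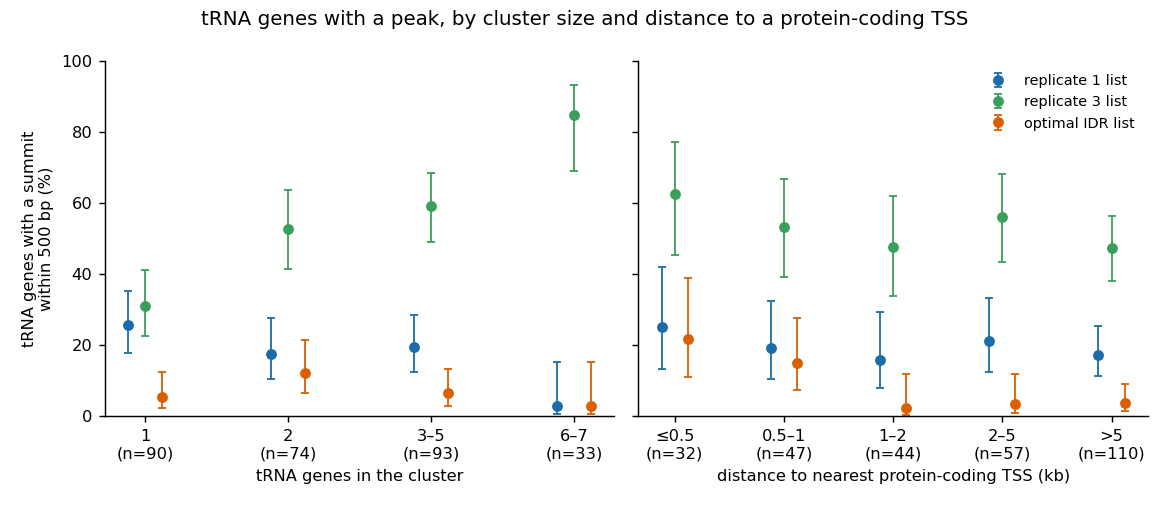
Share of tRNA genes (%) with a summit within 500 bp of the 5′ end by the number of tRNA genes in the cluster (left) and by distance to the nearest protein-coding TSS (right), for 3 peak lists; points are shares and bars 95% Wilson intervals. The replicate 3 share is higher in larger clusters, from 31.1% at single genes to 84.8% in clusters of 6 or 7, while the IDR share is highest at genes nearest to a protein-coding TSS. Neighbours in a cluster can share a summit, so the shares and bars count genes that are not independent.

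Clusters, defined as runs of tRNA genes with at most 2000 bp between neighbours, numbered 69 and held 200 genes, and the other 90 genes were single. In replicate 3, 122 of the 200 clustered genes (61.0%, 54.1 to 67.5) and 28 of the 90 single genes (31.1%, 22.5 to 41.3) had a summit within 500 bp. In replicate 1 the shares were 32 of 200 (16.0%, 11.6 to 21.7) and 23 of 90 (25.6%, 17.7 to 35.4). The intervals of the replicates thus overlapped for single genes and lay far apart for clustered genes. All annotated genes had shares of 42.4% in replicate 3 and 29.6% in replicate 1. Single genes were thus below all genes in both replicates, and clustered genes above them in replicate 3 and below them in replicate 1. Neighbours in a cluster can share a summit, so densities of distinct summits were also compared. Within 200 bp, the replicate 3 density was 4.43 times the list's mean at clustered genes (70 summits) and 1.98 times at single genes (16 summits), and that of replicate 1 was 0.570 times (9 summits) and 0.618 times (5 summits). In the 5 clusters of 6 or 7 genes, 28 of 33 genes (84.8%, 69.1 to 93.3) had a replicate 3 summit within 500 bp and 1 of 33 a replicate 1 summit. Counted once each, 15 replicate 3 summits lay within 200 bp there, 6.19 times the list's mean, and 0 replicate 1 summits, over 10.8 kb.

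The 3 largest clusters had 7 genes each. One on 2R, with 5 Ile-AAT and 2 Leu-CAA genes over 2513 bp, had 4 replicate 3 peaks that reached 6 of its genes, the strongest with a signal of 88.8, and no peak in replicate 1 or the IDR list. Another on 2R, with 3 Glu-TTC, 2 Glu-CTC and 2 initiator methionine genes over 3339 bp, had 4 replicate 3 peaks that reached all 7 genes, the strongest with a signal of 150, and again none in replicate 1 or the IDR list. The third, on X (chrX:14014814-14017284), held 5 Arg-TCG and 2 Ser-CGA genes, and 4 of its genes had a replicate 3 summit. Its only IDR peak (signal 359) lay 430 bp downstream of the 5′ end of the outermost gene, Arg-TCG-3-4, where replicate 1 had a signal of 107 and replicate 3 a signal of 252. The 6-gene clusters of Arg-ACG and Asn-GTT on 3R (chr3R:8139533-8141042) and of Cys-GCA and Lys-CTT on 3L (chr3L:3095737-3097590) also had replicate 3 peaks, reaching 6 and 5 genes, and none in replicate 1. A cluster of 4 Lys-CTT genes on 2R had no peak in any list, although the same tRNA sequence had a replicate 3 summit within 500 bp at 5 of its 13 copies.

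Chromosome arm 2R holds the most tRNA genes, 98, and there the replicates were farthest apart. A replicate 3 summit lay within 500 bp of 64 of them (65.3%, 55.5 to 74.0), against 42.3% of all genes on 2R, and a replicate 1 summit of 8 (8.16%, 4.19 to 15.3), against 26.7%. On 3R, with 79 tRNA genes, the shares were 38.0% in replicate 3 and 27.8% in replicate 1, against 40.8% and 31.2% of all genes on that arm. An IDR summit was found at 7 tRNA genes on 2R, 7 on 3R, 4 of 41 on 2L, 3 of 24 on X and 0 of 48 on 3L, which allows a share of up to 6.25% by a floor of 3 counts and has a Wilson upper limit of 7.41%. Among all genes of these arms the IDR shares were 14.9%, 16.8%, 15.3%, 16.9% and 16.7% in the same order.

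Genes with and without an identical copy had shares whose intervals overlapped. A replicate 3 summit within 500 bp was found at 125 of 238 tRNA genes with an identical copy (52.5%, 46.2 to 58.8) and at 25 of 52 without one (48.1%, 35.1 to 61.3). In replicate 1 the shares were 18.9% and 19.2%. Genes with 5 or more copies had 53.3% and 19.4% in replicates 3 and 1, against 42.4% and 29.6% of all annotated genes. How the authors placed reads that fit several copies is not given in the sources used here.

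Position inside a host gene was also described. Of the 290 tRNA genes, 134 lay within a protein-coding gene, 7 of them overlapping one of its exons. A replicate 3 summit within 500 bp was found at 50.7% of these 134 and at 52.6% of the other 156, and an IDR summit at 5 (3.73%, 1.60 to 8.44) and 16 (10.3%, 6.41 to 16.0). All annotated genes had shares of 42.4% in replicate 3 and 16.0% in the IDR list.

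The anticodon families differed in how many members had a peak, and the family members sit partly in the same clusters, so they are not independent. Among families of at least 4 genes, the highest replicate 3 shares were 5 of 6 for Glu-TTC, 5 of 6 for iMet-CAT, the initiator methionine tRNA that starts translation, 8 of 10 for Arg-ACG and 4 of 5 for His-GTG. None of these 27 genes had a replicate 1 summit within 500 bp, against 19.0% of all tRNA genes and 29.6% of all genes. These families were picked by their replicate 3 share. In the families with the next highest share, 75%, replicate 1 reached 0 of 8 Leu-CAG, 0 of 4 Ser-CGA, 1 of 4 Gln-TTG and 2 of 4 Leu-TAA genes. The lowest replicate 3 shares were 1 of 7 for Val-CAC, 1 of 6 for Gly-TCC and 1 of 5 for Pro-CGG. Of the largest families, with 14 or 13 genes, replicate 3 reached 7 Asp-GTC, 4 Gly-GCC, 9 Glu-CTC and 5 Lys-CTT genes, and replicate 1 reached 6, 2, 0 and 1. Ala-AGC, with 12 genes, had more members with a replicate 1 summit (5) than with a replicate 3 summit (3), as had Phe-GAA (3 and 2 of 8) and Val-CAC (2 and 1 of 7). At least one gene had a peak in 43 of the 45 families in replicate 3, 27 in replicate 1 and 17 in the IDR list. The single gene for selenocysteine tRNA, SeC-TCA-1-1, had no peak in any list.

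**Figure D4:**
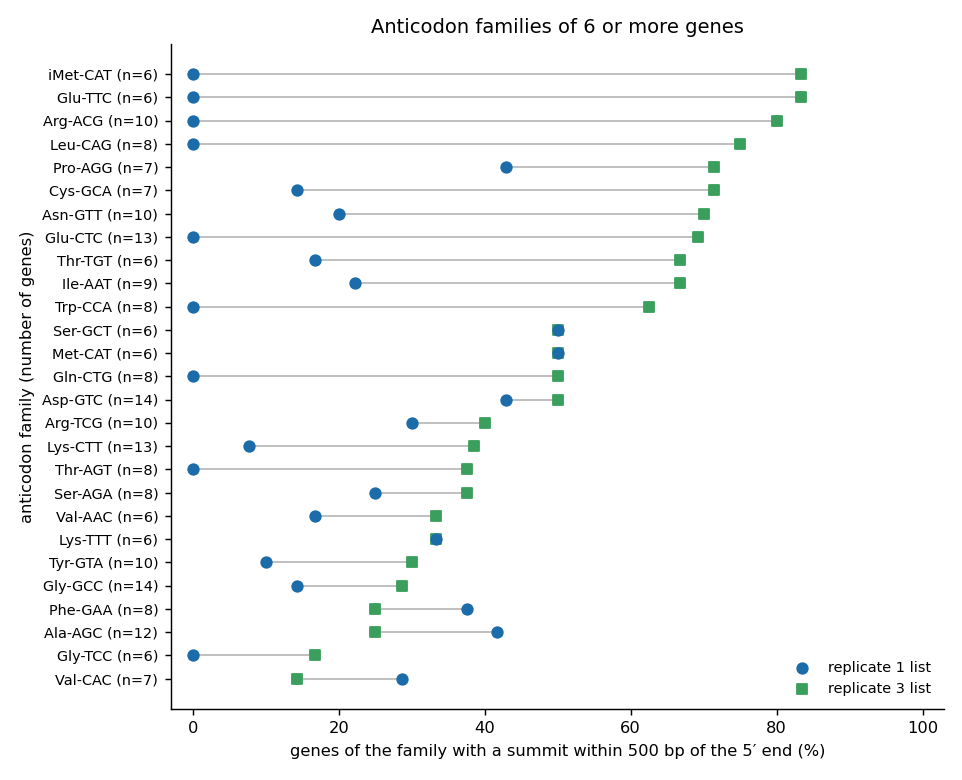
Share of the genes (%) of each anticodon family with 6 or more genes that had a summit within 500 bp of the 5′ end in replicate 1 (circles) and replicate 3 (squares). The squares lie right of the circles in most families, and Val-CAC, Ala-AGC and Phe-GAA show the opposite order.

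The 21 tRNA genes with an IDR summit shared 16 distinct peaks, in 10 clusters and at 5 single genes. Their median signal was 250 (151 to 1724), against 311 over all IDR peaks, and 7 of the 16 lay above that median. Upstream of the nearest tRNA 5′ end lay 8 summits and downstream 8, with a median position of -47 bp, and 1 fell inside a tRNA gene. At 7 of the 16, including the 1 inside a tRNA gene, the summit was given at the centre of the peak interval. The nearest start site was that of the tRNA gene for 11 peaks and that of a protein-coding gene for 5, and 9 of the 16 lay within 500 bp of a protein-coding TSS. A peak of replicate 1 overlapped 11 of the 16 by at least 50% of the shorter peak, a peak of replicate 3 overlapped 15, and 11 were overlapped in both.

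**Figure D5:**
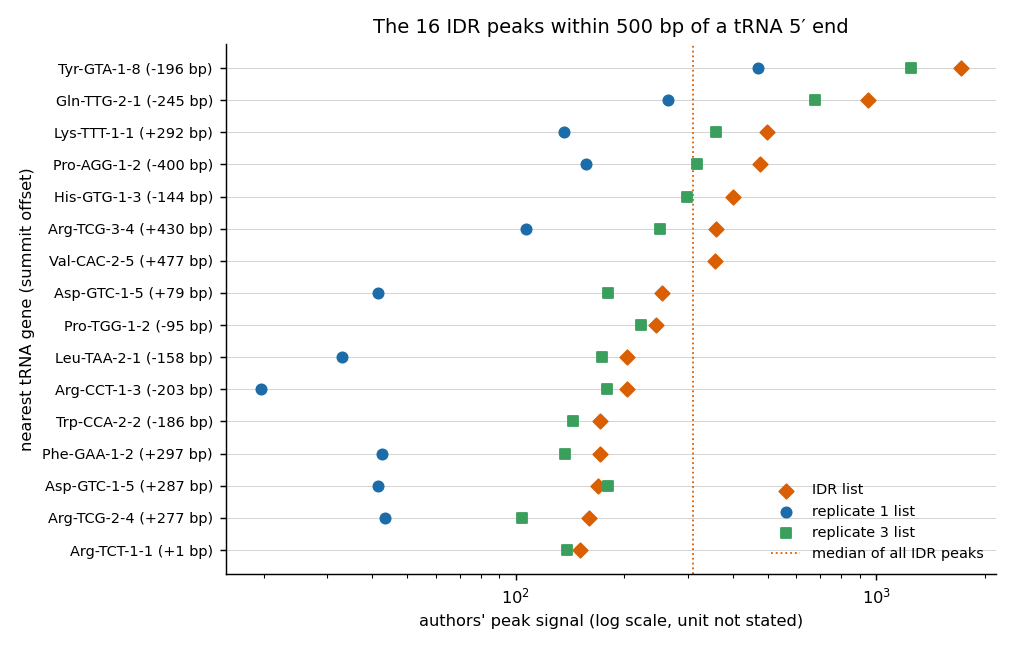
Authors' signal (log axis, unit not stated) of the 16 IDR peaks within 500 bp of a tRNA 5′ end and of the replicate peaks that overlap them by at least 50% of the shorter peak, ordered by IDR signal; labels give the nearest tRNA gene and the summit's offset from its 5′ end. Signals are comparable only within a list, a missing symbol means no such overlap, and the dotted line is the median of all IDR peaks (311).

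The strongest of these peaks lay at Tyr-GTA-1-8, a gene with the intron that tyrosine tRNA genes carry. It had a signal of 1724 in the IDR list (rank 165 of 7637), 471 in replicate 1 and 1247 in replicate 3. Its summit was 196 bp upstream of the tRNA 5′ end at chr3R:8669370, inside introns of CG8036 and p, and 248 bp from a TSS of CG8036. Its neighbours in the cluster, Tyr-GTA-1-6 and Tyr-GTA-1-7, shared a replicate 3 peak with a signal of 130 and had none in replicate 1.

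The next peaks lay far from protein-coding promoters. The peak at Gln-TTG-2-1, a single gene in an intron of CG12535, had a signal of 952 in the IDR list, 265 in replicate 1 and 677 in replicate 3. Its summit (chrX:3427768) was 245 bp upstream of the tRNA gene and 8039 bp from the nearest protein-coding TSS. The peak at Lys-TTT-1-1, in an intron of the kinase gene Btk, had signals of 499, 136 and 360 in the same 3 lists, with its summit 292 bp downstream of the 5′ end (chr2L:8291019). The peak at Pro-AGG-1-2 was intergenic, with signals of 476, 157 and 318 and its summit 400 bp upstream of the tRNA gene (chr2L:14598459). All 4 of these peaks were present in both replicates, and none of their summits lay inside the tRNA gene.

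The windows centred on the summits of the first 3 peaks are shown because they are the sequence under the strongest signal beside a tRNA gene. They are the plus strand of dm6, and capitals mark CACTG, one of the motifs counted at all summits.

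Tyr-GTA-1-8 peak (chr3R:8669310-8669430): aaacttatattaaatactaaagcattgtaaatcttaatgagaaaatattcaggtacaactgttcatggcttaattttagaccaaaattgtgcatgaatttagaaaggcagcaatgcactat
Gln-TTG-2-1 peak (chrX:3427708-3427828): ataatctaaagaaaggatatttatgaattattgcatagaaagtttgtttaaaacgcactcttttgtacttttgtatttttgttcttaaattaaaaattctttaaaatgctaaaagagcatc
Lys-TTT-1-1 peak (chr2L:8290959-8291079): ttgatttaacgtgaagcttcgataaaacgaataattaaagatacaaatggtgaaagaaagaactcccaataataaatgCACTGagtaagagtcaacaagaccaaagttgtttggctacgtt

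These windows were rich in A and T, at 71.9%, 77.7% and 66.9% in the order printed, against 57.8% over the chromosomes. Over the 16 IDR peaks the median A + T content within 50 bp of the summit was 67.3%, against 57.4% in flanks centred 200 bp away, and it was higher at the summit in 14 of 16. All IDR peaks had 71.3% and 54.9%. The 86 replicate 3 summits within 200 bp of a tRNA 5′ end had 59.9% at the summit and 63.2% in the flanks, and the summit was higher in 40 of 86. All replicate 3 peaks had 62.4% and 56.9%, with a higher summit in 62.4% of peaks. The tRNA genes themselves had a median A + T content of 41.5%, and whether windows that reach into them account for the lower summit values was not tested. The 14 replicate 1 summits within 200 bp had 63.9% at the summit and 59.3% in the flanks, with a higher summit in 10 of 14, and the 66 pooled ones had 62.4% and 61.8%, with a higher summit in 36 of 66.

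Short motifs were counted on both strands within 50 bp of the 16 IDR summits. CACTG was in 2, against 13.6% of all IDR peaks, CGATA in 4, against 10.4%, GAGAG in 1, against 7.82%, TATAA in 8, against 46.4%, and TTTTT, whose runs also end transcription by RNA polymerase III, in 10, against 62.7%. The longer TATCGATA, which contains CGATA, was in 0 of the 16, a count that allows a share of up to 18.8%. With 16 peaks these shares are close to those of the whole list or rest on few peaks. The loose B box was within 50 bp of 26 of the 86 replicate 3 summits (30.2%), against 2.92% of all replicate 3 peaks, which follows from their choice beside tRNA genes, and of 0 of the 38 summits from 200 to 500 bp, which allows a share of up to 7.89%.

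The remaining IDR peaks at tRNA genes were weaker or lay at protein-coding promoters. The peak beside His-GTG-1-3 had a signal of 400 in the IDR list and 299 in replicate 3, with no overlapping peak in replicate 1, and its summit lay 106 bp from the TSS of CG8490 and 144 bp upstream of the tRNA gene. The peak beside Val-CAC-2-5, in an intron of Naam, which codes for nicotinamide amidase, had an IDR signal of 357 and overlapped no peak of either replicate list by 50%. The peak beside Phe-GAA-1-2 (171) lay 8 bp from the TSS of RpL17, a ribosomal protein gene, with signals of 42.5 in replicate 1 and 137 in replicate 3. Asp-GTC-1-4 and Asp-GTC-1-5, upstream of the semaphorin gene Sema1a, shared 2 IDR peaks (255 and 169), which overlapped the same replicate peaks, with signals of 41.4 in replicate 1 and 180 in replicate 3.

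A further 6 peaks had IDR signals from 151 to 245. One peak (245) lay among Ala-AGC-2-2, Pro-TGG-1-2 and Ala-AGC-2-3 with a replicate 3 signal of 223 and no overlapping replicate 1 peak. The peak beside Leu-TAA-2-1 (203) had signals of 32.9 in replicate 1 and 173 in replicate 3. The peak between Arg-CCT-1-2 and Arg-CCT-1-3 (203) had 19.6 and 179, so it ranked 22357 in replicate 1 and 4621 in replicate 3. The peak beside Arg-TCG-2-4 (160), in an intron of the junction gene pyd, had 43.5 and 104. The peak at Trp-CCA-2-2 and Gly-GCC-1-9 (171) and that at Arg-TCT-1-1 and Met-CAT-1-1 (151) overlapped replicate 3 peaks with signals of 144 and 139 and none of replicate 1. The last of these, with its summit 1 bp after the first base of Arg-TCT-1-1, was the only IDR summit inside a tRNA gene. This summit was given at the centre of its peak interval, so its position is that of the interval's midpoint.

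Apart from these 21 genes, 17 had a summit within 500 bp in the pooled and both replicate lists but not in the IDR list. Each list was searched by itself, so the summits of a gene can belong to different peaks. The strongest by pooled signal was Pro-CGG-2-1 (122), inside the gene Bx, with 17.1 in replicate 1 and 98.9 in replicate 3 and a summit 422 bp after the 5′ end. Leu-TAA-1-1, inside the host gene bon, had a pooled signal of 118, with 36.1 in replicate 1 and 84.9 in replicate 3, and summits 74 to 123 bp after the 5′ end. Pro-AGG-1-7 had 113 in the pooled list, 27.6 in replicate 1 and 84.9 in replicate 3, and its summits lay 73 to 75 bp after the 5′ end, just past the end of this 72 bp gene. Pro-AGG-1-1 had 102, 25.4 and 75.3 in the same lists, with summits at -119, 34 and -119 bp from the 5′ end. Arg-TCT-3-1, an intergenic single gene 5379 bp from a protein-coding TSS, had 84.1, 32.3 and 52.2, with summits 11, 25 and 7 bp after the 5′ end in the same order. It was thus a gene whose listed summits lay inside the tRNA sequence in each of these lists, without an IDR peak. Within 200 bp of a tRNA 5′ end, most listed summits were interval centres. This held for 63 of 66 in the pooled list, 13 of 14 in replicate 1 and 81 of 86 in replicate 3. These positions may thus be midpoints of wider intervals. The others among the 10 strongest were Cys-GCA-4-1, Val-TAC-1-1, Asn-GTT-1-2, Asn-GTT-1-3 and Phe-GAA-1-6, with pooled signals from 79.2 to 97.5, replicate 1 signals from 21.2 to 27.2 and replicate 3 signals from 44.3 to 69.5. Of these 10 genes, 6 had a replicate 1 signal above that list's median of 25, and 8 a replicate 3 signal above that list's median of 51.9. They were picked by pooled signal, which draws on the same libraries, so these counts follow in part from the choice. Asn-GTT-1-2 and Asn-GTT-1-3 shared the same peak in each of these lists. At Cys-GCA-4-1 the summits lay at 496 bp in the pooled list, -204 bp in replicate 1 and 435 bp in replicate 3. At Val-TAC-1-1 they lay at -166, -253 and -146 bp in the same order.

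Protein-coding genes that make tRNA were described beside the tRNA genes, with a gene counted when any of its start sites lay within 500 bp of a summit. Of 27 matched genes for RNA polymerase III, its factors and related proteins, 8 had an IDR peak, 17 a pooled, 10 a replicate 1 and 19 a replicate 3 peak. Over all protein-coding genes the shares were 18.0% in the IDR list, 41.8% in the pooled list, 31.2% in replicate 1 and 45.8% in replicate 3. The strongest IDR signals were 1573 at Bdp1 and 1026 at Brf, which code for TFIIIB subunits, 1131 at Polr3E, which codes for a polymerase III subunit, and 670 at Polr2H, which codes for a subunit shared by RNA polymerases. Bdp1 had 716 in replicate 1 and 868 in replicate 3, and Brf had 370 and 669. Polr3A, which codes for the largest polymerase III subunit, had no peak in any list. Of 26 matched genes for tRNA processing and modification, 8 had an IDR peak, 13 a pooled, 10 a replicate 1 and 17 a replicate 3 peak, to be read against the same protein-coding shares. The strongest IDR signals there were 3618 at Tcs5, whose product takes part in the threonylcarbamoyl modification of tRNA, and 2128, 1237 and 490 at Elp5, Elp6 and Elp4, which code for Elongator subunits. Adat1, which codes for a tRNA deaminase, and Elp2 had no peak in any list. The signals at Tcs5 and Elp5 were above the strongest at a tRNA gene (1724).

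Of 110 other genes of RNA polymerase III, mostly 5S ribosomal RNA repeats, 0 had an IDR summit within 500 bp, 3 had a pooled, 2 a replicate 1 and 5 a replicate 3 summit. Over noncoding genes other than tRNA the shares were 8.73%, 27.5%, 23.9% and 28.0% in the same order. The 5S repeats all lie on 2R and are not independent genes. Among them only 5SrRNA:CR33452 had a summit, with signals of 32.8 in the pooled list and 42.5 in replicate 3. The low counts thus rest mainly on these repeats, and the other summits were at the few remaining genes. RNaseMRP:RNA, the RNA of a processing nuclease, had signals of 115 in the pooled list, 19.1 in replicate 1 and 89.9 in replicate 3. The gene snRNA:7SKa, for an RNA that holds the elongation factor P-TEFb inactive, had 118 in the pooled list and 128 in replicate 3, with no replicate 1 summit. The U6 genes snRNA:U6:96Ab and snRNA:U6:96Ac, whose RNA is a core part of the spliceosome, had the same replicate 3 signal of 73.9. They had no summit in the other lists, and snRNA:U6:96Aa had none in any list.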

How the data were processed

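Peak lists of both libraries, of their pooled reads and the optimal IDR set are narrowPeak files on dm6. They were derived from alignments and a control, per the deposited readme texts. No source used here names the aligner, the peak caller or a threshold, and the control itself was not examined. The deposited signal has no stated scale. No result rests on the −log10 q-value the authors deposited. The deposited summit offset set each position, and where it equalled the peak's width the last base was taken. Depth is unknown.

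Gene positions were read from the Ensembl 115 annotation (BDGP6.54), and bases from the genome of RefSeq release 6. Both use dm6 coordinates, printed 1-based. A gene had a peak when a summit lay within 500 bp, or 200 bp, of its 5′ end or any start site; the strongest such peak gave its signal. Mature microRNA entries (481), which have no start site, were left out. Shares have 95% Wilson intervals, and the share that a count of 0 allows is 3 counts of the total; both cover counting error only. No chance test was made. Scripts ran under Python 3.11.15 with matplotlib 3.10.9, pandas 2.3.3, SciPy 1.17.1 and NumPy 2.4.6, and were tested on simulated data. The genes and lists were chosen with earlier results of these data known. Named are all tRNA genes with an IDR peak, up to 10 with pooled and both replicate peaks but no IDR peak, families and clusters at the extremes, and up to 4 list members with and 2 without a peak. The symbols Polr3J, TfIIIA, Tadt2, Clp1 and CCA tRNA nucleotidyltransferase matched no gene. The full A and B box consensus was found in 24.8% and 50.0% of tRNA genes, so loose forms were added after the data were seen.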

Additional observations from a re-analysis of the deposited data

How the results depend on the processing

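Of 81 alternative values, 33 stayed within 1.5 times a count or a median signal, or within 100 bp of a median position, and 48 moved. Median signals of a replicate list were scored against the IDR median of 250, although signals are comparable only within a list. With a window of 250 bp, 13 tRNA genes had an IDR summit, 3 of them far from a protein-coding TSS and 2 single, from 9 distinct peaks with a median position of -158 bp. With 1000 bp these values were 39, 22, 13, 32 and -172 bp. The 3818 stronger IDR peaks gave 7 genes, 4 far and 3 near, 4 clusters, 3 single genes and 7 peaks with a median signal of 476. Peaks that overlap the tRNA gene body gave 4 genes, 0 far and 4 near, 4 clusters, 0 single genes and 4 peaks. A limit of 500 bp in place of 1000 bp put 14 of the genes with a peak far and 7 near. IDR peaks overlapping both replicate lists by 50% left 12 genes. Using the 7637 strongest peaks of one replicate alone (without replicate 3, then without replicate 1) gave 6 to 33 genes, 5 to 15 far, 1 to 18 near, 4 to 15 clusters, 6 to 22 peaks, 2 to 4 single genes, a median signal of 147 to 154 and a median position of -218 to 110 bp. The median position thus changed from upstream to downstream without replicate 1, and the near and far shares changed order without replicate 3 (1 of 79 near, 5 of 211 far). Alternatives within 200 bp were added after seeing the data. A window of 100 bp gave 52 genes in replicate 3, 7 in replicate 1 and 37 in the pooled list, the stronger 15000 peaks of each list 43, 7 and 33, and its 7637 strongest peaks 17, 1 and 8. In replicate 1, 300 bp gave 30 and distance from any base of the gene 22. Replicate 3 reached more tRNA genes than replicate 1 under each of these. No paired analysis was possible because the study has 1 group. Depth could not be read from the lists, so a gene without a peak is not shown to lack binding, and reads from identical copies could not be told apart here.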
